A study of Mus musculus with 87 samples.

Results

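Tbx2 (ENSMUSG00000000093), Tbx4 (ENSMUSG00000000094), Tbx1 (ENSMUSG00000009097), Tbx5 (ENSMUSG00000018263) and Tbx20 (ENSMUSG00000031965) are 5 members of the T-box family, among 55450 Ensembl gene IDs counted in mouse embryonic stem (ES) cells. They were matched by the ID before its version suffix. The 5 were picked with their RNA levels in Suz12 KO and in the Pcl1-3 knockouts already known. Differences of the Pcl1-3 knockouts from Suz12 KO, and of both from wild type (WT), are therefore given as a description, with no test. Each gene was also set against the deposited peak lists of SUZ12, JARID2 and PCL2, with a peak counted when it overlapped the gene or lay within 1 kb of it.

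The study removed subunits of Polycomb repressive complex 2 (PRC2), which methylates histone H3 at lysine 27, from ES cells. The RNA data comprise 8 genotypes with 3 libraries each, 24 in all. WT, Suz12 KO and a knockout of Jarid2 and Aebp2 (Jarid2 + Aebp2 KO) have Pcl1-3 in place. The other 5 lack it: Pcl1-3 KO itself and those that lack, besides, Epop (Pcl1-3 + Epop KO), Jarid2 (Pcl1-3 + Jarid2 KO), both Jarid2 and Aebp2 (Pcl1-3 + Jarid2 + Aebp2 KO) or all of Jarid2, Aebp2 and Epop. The last of these, labelled Pcl1-3 + Jarid2 + Aebp2 + Epop KO, is called the full non-core knockout here, because it lacks every subunit outside the core that the study names. SUZ12 is a core subunit, without which the complex does not hold together, and Pcl1-3 stands for the 3 Polycomb-like genes Phf1, Mtf2 and Phf19. All cells, WT included, were kept on gelatin in 2i medium, which contains inhibitors that hold ES cells in a naive state. The labels name no clone or culture for a library. The p-values rest on the spread among libraries of the same genotype, whether biological or technical. That spread is pooled over all 8 genotypes and drawn towards that of other IDs, so it is not specific to the genotypes compared. The strain label runs from 129B6F1 in WT to 129B6F8 in the full non-core knockout, a different one for each genotype, so strain and genotype cannot be told apart as labelled. The final digit goes up by 1 from each genotype to the next, and nothing beyond these labels says whether the strains differ. In a bulk sample, fewer cells making an RNA and less of that RNA per cell cannot be told apart either.

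T-box proteins are transcription factors that bind DNA through a shared domain and direct the formation of mesoderm, heart, limbs and pharynx. TBX2 is mainly a repressor, known from the chambers and outflow tract of the heart and from limb buds. TBX4 drives outgrowth of the hindlimb and TBX5 that of the forelimb, and TBX5 is also needed for the heart. TBX1 patterns the pharyngeal arches and the outflow tract, and TBX20 is required for heart chambers and valves. Genes of this kind are classical PRC2 targets in ES cells, where they are kept nearly silent.

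Tbx2 and Tbx4 are neighbours on chromosome 11 of mm10. Tbx2 spans 85832615 to 85841948 and Tbx4 spans 85886367 to 85916097, with a gap of 44418 bp that holds 0 protein-coding genes. Tbx1 lies on chromosome 16 (18580979 to 18590671), Tbx5 on chromosome 5 (119796514 to 119885220) and Tbx20 on chromosome 9 (24720812 to 24774303).

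Promoters of 3 of the 5 genes, Tbx4, Tbx1 and Tbx20, were matched in the RefSeq table (build GRCm38.p6, the NCBI name of mm10). One promoter of each is shown because the peaks treat them differently: those of Tbx1 and Tbx20 lay inside a SUZ12, a JARID2 and a PCL2 peak, and the one of Tbx4 lay outside all peaks. Each runs 5′ to 3′ on the gene's strand from 250 bases before a start site to 50 after it, and capitals mark CG dinucleotides.
Tbx4 (chr11:85896515-85896814, plus strand): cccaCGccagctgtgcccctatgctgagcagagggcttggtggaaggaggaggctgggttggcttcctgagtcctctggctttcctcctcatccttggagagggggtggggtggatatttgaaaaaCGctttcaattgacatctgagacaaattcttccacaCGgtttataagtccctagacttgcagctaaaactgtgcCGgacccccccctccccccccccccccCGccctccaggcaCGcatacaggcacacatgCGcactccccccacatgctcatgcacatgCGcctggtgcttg
Tbx1 (chr16:18588850-18589149, minus strand): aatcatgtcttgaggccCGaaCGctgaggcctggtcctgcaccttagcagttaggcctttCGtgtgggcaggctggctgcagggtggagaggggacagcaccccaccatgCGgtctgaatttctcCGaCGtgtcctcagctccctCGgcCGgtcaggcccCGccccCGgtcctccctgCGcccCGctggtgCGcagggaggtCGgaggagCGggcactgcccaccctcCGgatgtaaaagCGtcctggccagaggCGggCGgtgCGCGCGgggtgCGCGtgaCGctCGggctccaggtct
Tbx20 (chr9:24774254-24774553, minus strand): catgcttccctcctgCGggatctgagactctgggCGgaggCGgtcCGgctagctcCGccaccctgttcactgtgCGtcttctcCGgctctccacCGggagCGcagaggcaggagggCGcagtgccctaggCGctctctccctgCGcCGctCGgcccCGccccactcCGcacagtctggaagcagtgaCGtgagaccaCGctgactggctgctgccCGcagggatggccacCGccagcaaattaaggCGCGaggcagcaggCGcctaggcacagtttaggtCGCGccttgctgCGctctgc
The sequences of Tbx1 and Tbx20 each hold 26 CG dinucleotides, more than 83.1% of the 32851 promoters in the table, whose median is 7. The Tbx4 sequence holds 8, close to that median. A further start of Tbx1 (chr16:18590622-18590921), also inside peaks of all 3 proteins, has 16. The start used for Tbx4 is an internal one: it lies within the gene, beyond the peaks at the gene's lower-coordinate end. The T-box binding motif TCACACC, searched on both strands, was in none of these 4 promoters and in 3.98% of all promoters in the table. That says only that these letters are not in these windows.

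All 3 proteins had a peak at each of the 5 genes, as they did at 13.7% of 21887 protein-coding genes. Taken singly, a SUZ12 peak was found at 24.2% of protein-coding genes, a JARID2 peak at 14.3% and a PCL2 peak at 42.0%. The files name neither the genotype nor the replicates behind a list, and a peak has no height, so only position and width can be compared.

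Tbx2 was covered from end to end. Its SUZ12 peak measured 14114 bp (chromosome 11, 85828614 to 85842727), its JARID2 peak 13112 bp and its PCL2 peak 13819 bp. These are among the widest of their lists: 99.9% of the 7796 SUZ12 peaks, 99.9% of the 4991 JARID2 peaks and 99.96% of the 20003 PCL2 peaks were narrower or as wide. The median peak measured 1462.5 bp for SUZ12, 1050 bp for JARID2 and 724 bp for PCL2. Tbx4 was covered over part of its length, at its lower-coordinate end. SUZ12 peaks of 6292 bp and 2677 bp covered 26.5% of it, JARID2 peaks 27.1% and PCL2 peaks 26.9%. Between the genes, SUZ12 peaks covered 8.85% of the gap, JARID2 peaks 4.33% and PCL2 peaks 7.40%, and 1 SUZ12, 2 JARID2 and 2 PCL2 peaks lay wholly inside it.

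**Figure D1:**
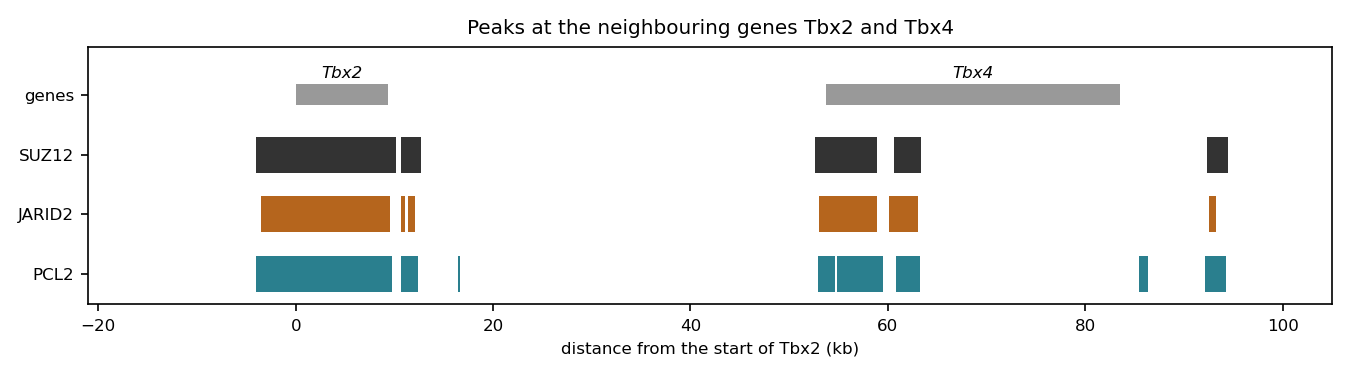
Genes (grey) and peaks of SUZ12, JARID2 and PCL2 (bars) by distance from the start of Tbx2 in kb. One wide peak of each protein spans all of Tbx2, while the peaks at Tbx4 cover 26.5% (SUZ12), 27.1% (JARID2) and 26.9% (PCL2) of the gene at its left end.

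Tbx1 resembled Tbx2 in its coverage. A SUZ12 peak of 11975 bp and a PCL2 peak of 12029 bp each held the whole gene, and 2 JARID2 peaks covered 98.3% of it. Tbx5, a much longer gene, had 7 SUZ12, 7 JARID2 and 11 PCL2 peaks inside it, which covered 19.8%, 12.6% and 23.5% of its length. They fell mostly into a group near its lower-coordinate end and another in the middle of the gene. Tbx20 had 2 peaks of each protein at its higher-coordinate end, where its start lies, which covered 8.70% (SUZ12), 7.61% (JARID2) and 5.77% (PCL2). By covered share, Tbx20 still ranked above 92.0% of protein-coding genes for SUZ12, 95.4% for JARID2 and 85.4% for PCL2. Tbx2 and Tbx1 ranked above 99.3% for SUZ12. Most protein-coding genes have no peak of a given protein, so any covered gene outranks those.

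**Figure D2:**
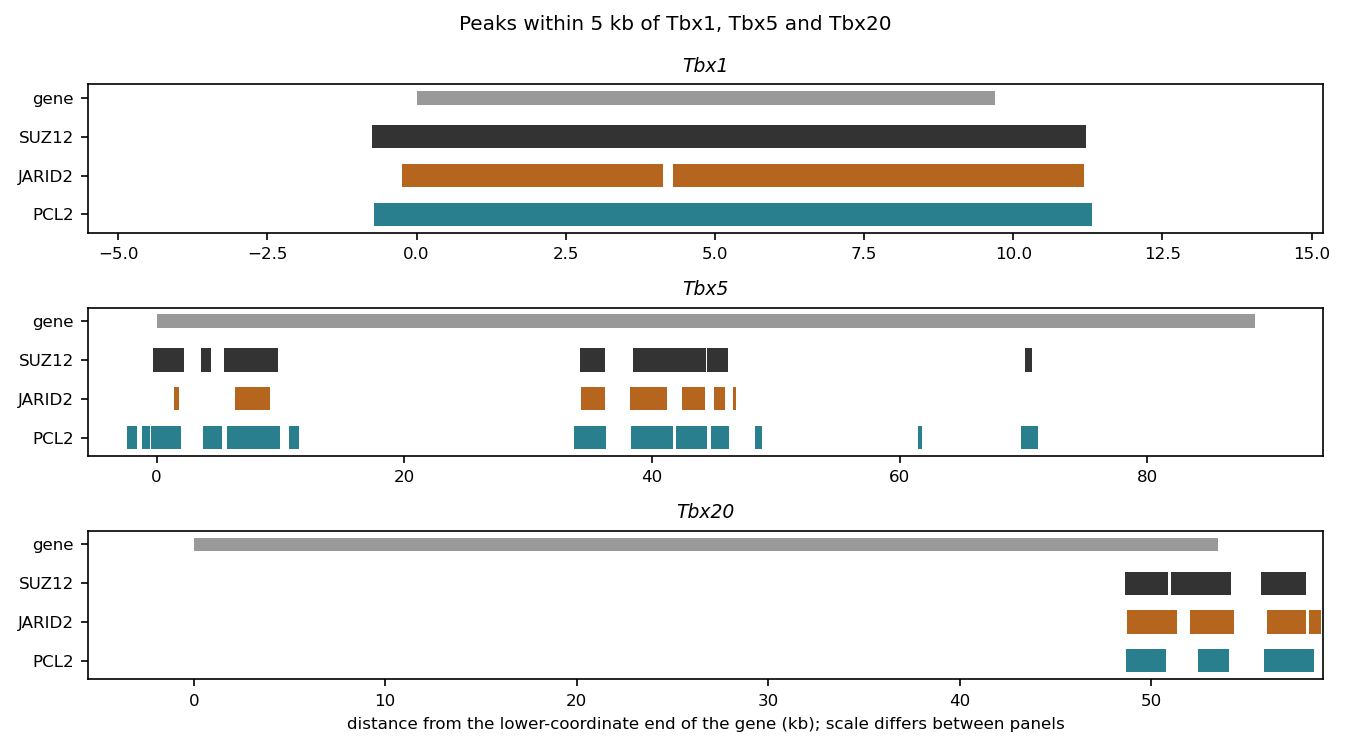
Peaks of SUZ12, JARID2 and PCL2 at Tbx1, Tbx5 and Tbx20, by distance in kb from the lower-coordinate end of each gene (grey bar). Single peaks of SUZ12 and PCL2 span Tbx1, separate peaks cover 19.8% (SUZ12) of Tbx5, and those at Tbx20 sit at its right-hand end; each panel has a scale of its own.

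Of 10 adjoining genes outside the pair, 2 had a SUZ12 peak, 1 a JARID2 peak and 5 a PCL2 peak, where the shares over all protein-coding genes are 24.2%, 14.3% and 42.0%. Of the protein-coding neighbours of the Tbx2 and Tbx4 pair, Bcas3, Brip1 and Ints2 had no peak of any of the 3 proteins, and Ppm1d had a PCL2 peak alone. Beside Tbx1, Gp1bb had peaks of all 3 and Gnb1l of PCL2. Beside Tbx5, the T-box gene Tbx3 had a PCL2 peak without SUZ12 or JARID2, and Rbm19 had none. Beside Tbx20, Dpy19l2 had SUZ12 and PCL2 peaks and Herpud2 had none.

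Among 12 other T-box genes, 6 had peaks of all 3 proteins, against 13.7% of all protein-coding genes. These were T, which specifies mesoderm, Eomes, which acts in mesoderm, endoderm and trophoblast, Tbr1, a factor of cortical neurons, Tbx21, a T-cell factor, and Tbx15 and Tbx18. Tbx3 and Tbx10 had a PCL2 peak alone, and Tbx6, Tbx19, Tbx22 and Mga had none. Of 15 partners and targets of T-box factors in heart, limb and pharynx, 11 had a SUZ12 peak, 11 a JARID2 peak and 12 a PCL2 peak, and 10 had all 3, beside the same shares over all genes of 24.2%, 14.3%, 42.0% and 13.7%. Nkx2-5, Hand2, Isl1, Fgf8, Bmp2, Bmp4 and Pitx1 were among those with all 3. The target genes Nppa and Gja5 and the cell cycle inhibitor Cdkn1a had none. Of 8 genes of the ES cell state, Pou5f1, Nanog, Sox2, Zfp42 and Tfcp2l1 had none, Klf4 had a PCL2 peak, Dppa3 had SUZ12 and PCL2 peaks, and Esrrb had all 3. The counts, 2 of 8 for SUZ12, 1 for JARID2 and 3 for PCL2, are near the shares over all genes. RNA of these lists is not analysed here, because the count files carry IDs and only the 5 members were given symbols.

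RNA levels of the 5 genes were low, and values are given as CPM, read counts per 1000000 of a library total scaled with edgeR's TMM factors. A count of 10 in a library of median depth corresponds to 0.742 CPM. The 24 libraries held 10148155 to 28442061 counts. All 5 genes passed the filter on low counts, but Tbx4, Tbx1, Tbx5 and Tbx2 did so only through genotypes where they are higher. Tbx4 reached that level in the 3 Suz12 KO libraries and 1 WT library. Tbx1 did so in the 6 libraries of Suz12 KO and the full non-core knockout. Tbx5 reached it in 12 libraries, but in none of WT, Jarid2 + Aebp2 KO or Pcl1-3 + Jarid2 + Aebp2 KO. Tbx2 also reached it in 12, with none in WT or Pcl1-3 + Jarid2 + Aebp2 KO. Such genes had to differ between genotypes to be tested at all.

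Tbx2 had 4, 6 and 8 counts in the WT libraries, or 0.390, 0.595 and 0.582 CPM. In Suz12 KO it had 25, 39 and 88 counts (1.67, 2.34 and 5.44 CPM), against 9, 12 and 11 for the full non-core knockout (0.808, 0.946 and 0.918 CPM). All Suz12 KO libraries lay above all WT libraries, with replicate 3 far above its companions, and the full non-core knockout lay between both groups without touching either. The mean (± SD, n = 3) was 0.522 ± 0.115 CPM in WT against 3.15 ± 2.01 in Suz12 KO. The log2 fold change was 2.56 ± 0.66 (SE), or 1.90 without Suz12 KO replicate 3. In the full non-core knockout the mean was 0.891 ± 0.0728 CPM, a log2 fold change of 0.75 ± 0.74 against WT. The means of Pcl1-3 KO (0.976 CPM), Jarid2 + Aebp2 KO (0.802), Pcl1-3 + Epop KO (0.810), Pcl1-3 + Jarid2 KO (0.751) and Pcl1-3 + Jarid2 + Aebp2 KO (0.386) were neighbours in the order of levels whose libraries overlapped.

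Tbx4, the neighbour, had 2, 11 and 6 counts in WT (0.195, 1.09 and 0.437 CPM) and 47, 49 and 70 in Suz12 KO (3.14, 2.94 and 4.32 CPM). In each of the 5 Pcl1-3 knockouts it had 0 to 3 counts per library. The full non-core knockout held 2, 1 and 0 counts (0.180, 0.0788 and 0 CPM). Thus Tbx4 was high in Suz12 KO and had a mean under that of WT in every knockout that lacked Pcl1-3. Jarid2 + Aebp2 KO, which keeps Pcl1-3, also had a mean under that of WT (0.261 CPM). The mean was 0.574 ± 0.463 CPM in WT, 3.47 ± 0.747 in Suz12 KO and 0.0862 ± 0.0900 in the full non-core knockout (SD, n = 3). The log2 fold change in Suz12 KO was 2.60 ± 0.45 (SE). From 3 counts in the full non-core knockout, the ratio to WT was 0.150, with an exact 95% interval from 0.0285 to 0.511 that covers counting error only. In Pcl1-3 KO, with 5 counts, the log2 fold change against WT was -2.49 ± 0.68.

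How far Tbx4 lay below WT rested on 1 WT library. Without WT replicate 2, which held 11 of the 19 WT counts, the log2 fold change was -1.73 in Pcl1-3 KO and 3.36 in Suz12 KO. WT replicate 1 and the full non-core knockout's replicate 1 held 2 counts each. The libraries of Pcl1-3 KO, Pcl1-3 + Jarid2 + Aebp2 KO and the full non-core knockout all lay below the WT libraries, and those of Pcl1-3 + Epop KO and Pcl1-3 + Jarid2 KO overlapped them.

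Tbx1 had 0, 1 and 4 counts in WT and 17, 27 and 67 in Suz12 KO (1.14, 1.62 and 4.14 CPM). The full non-core knockout had 14, 23 and 27 (1.26, 1.81 and 2.25 CPM). In Pcl1-3 + Jarid2 + Aebp2 KO, which differs from the latter by the presence of Epop, no library held a count. Suz12 KO and the full non-core knockout overlapped each other and lay above all other genotypes, in which a library held at most 4 counts. The log2 fold change against WT was 3.92 ± 0.75 (SE) in Suz12 KO and 3.54 ± 0.78 in the full non-core knockout. Both rest on 5 WT counts, 4 of them in replicate 3. Without WT replicate 3, which leaves 1 WT count, the fitted values were 5.32 in Suz12 KO and 4.94 in the full non-core knockout, heights that depend on the prior count. Without Suz12 KO replicate 3, the value there was 3.17.

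Tbx5 had 1, 0 and 0 counts in WT and 72, 78 and 85 in Suz12 KO (4.81, 4.68 and 5.25 CPM). The full non-core knockout had 111, 95 and 85 (9.97, 7.49 and 7.09 CPM), all above the Suz12 KO libraries. Pcl1-3 + Jarid2 KO came next, with 51, 17 and 31 counts (3.67, 1.41 and 2.06 CPM), and its libraries were apart from those above and below it in the order. Against the single WT count, the ratio of Suz12 KO was 168, with an exact 95% interval from 29.8 to 6645. That of the full non-core knockout was 277, from 49.3 to 10981. The intervals cover counting error only.

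Tbx20 had 8, 13 and 20 counts in WT (0.779, 1.29 and 1.46 CPM) and 163, 157 and 185 in Suz12 KO (10.9, 9.42 and 11.4 CPM). The full non-core knockout had 244, 178 and 112 (21.9, 14.0 and 9.35 CPM), a range that took in the Suz12 KO libraries. The log2 fold change against WT was 3.14 ± 0.31 (SE) in Suz12 KO and 3.65 ± 0.31 in the full non-core knockout. Pcl1-3 + Jarid2 + Aebp2 KO came next in the order, with 2.85, 2.60 and 3.82 CPM, above the other knockouts and WT. The means of Pcl1-3 + Epop KO (1.84 CPM), Pcl1-3 KO (1.80) and Pcl1-3 + Jarid2 KO (1.79) overlapped, and Jarid2 + Aebp2 KO (0.729) overlapped WT (1.17).

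**Figure D3:**
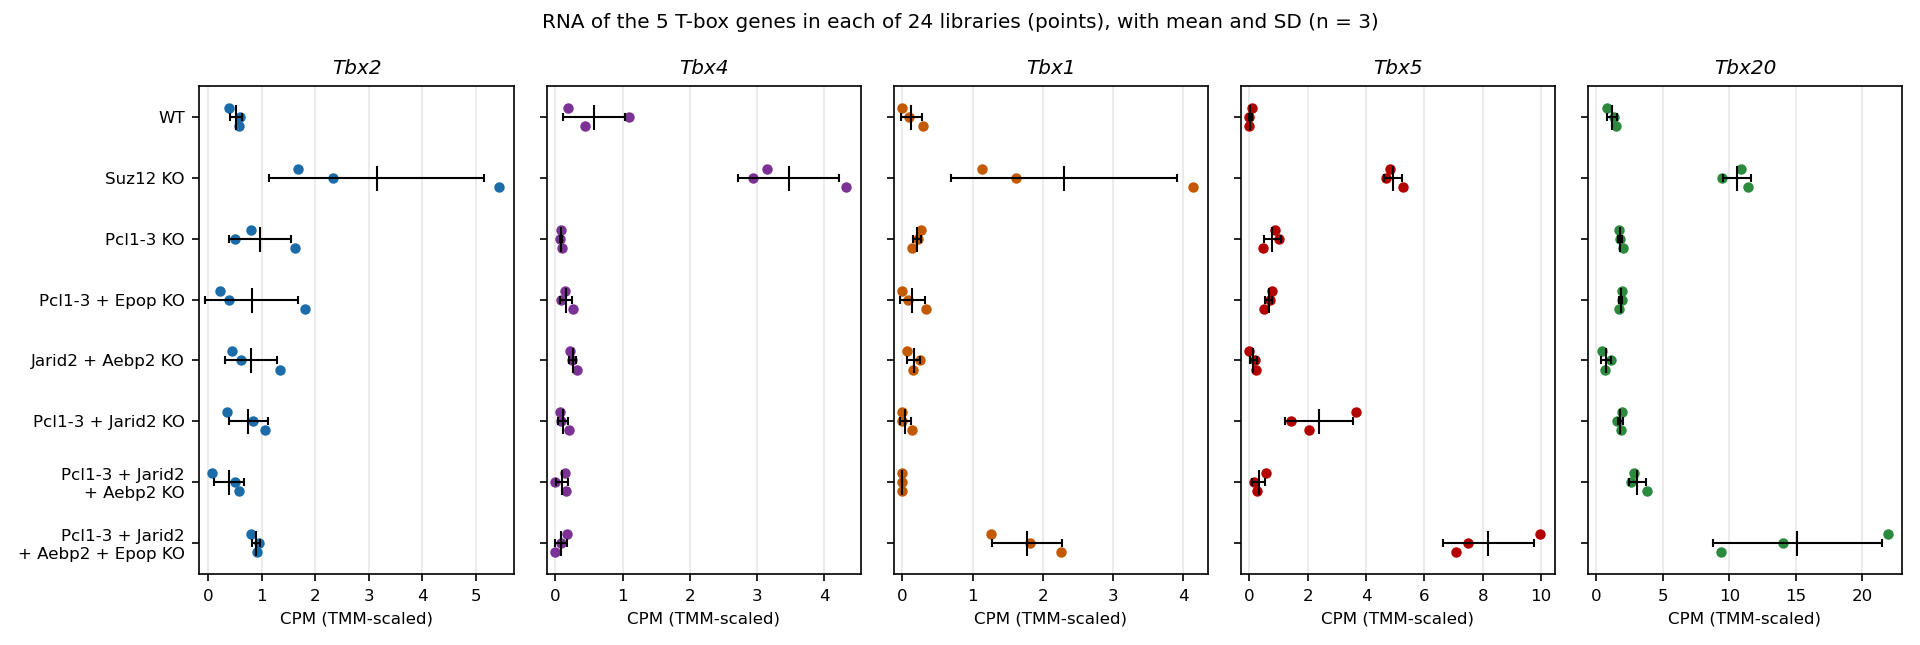
CPM of each gene (horizontal axes, a scale for each panel) in the 24 libraries (points) of 8 genotypes, with the mean and SD (n = 3). Tbx2 and Tbx4 are high in Suz12 KO (means 3.15 and 3.47 CPM) and low in the full non-core knockout (0.891 and 0.0862), whereas Tbx1, Tbx5 and Tbx20 are high in both.

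Set beside each other, the genes did not follow 1 pattern. In Suz12 KO all 5 had every library above WT, as 28.5% of the 14650 IDs tested did, and their median log2 fold change was 3.14 against -0.02 over all IDs. In the full non-core knockout, 4 lay above WT (23.4% of IDs) and 1, Tbx4, below (23.9% of IDs). Compared with Suz12 KO directly, the full non-core knockout was lower in every library for Tbx2 (log2 fold change -1.81 ± 0.61) and Tbx4, as were 26.6% of IDs. From its 3 counts, the ratio for Tbx4 was 0.0241, with an exact 95% interval from 0.00493 to 0.0718. Without Suz12 KO replicate 3 the value for Tbx2 was -1.16. It overlapped Suz12 KO for Tbx1 (-0.37 ± 0.52, and 0.37 without Suz12 KO replicate 3) and Tbx20 (0.51 ± 0.26) and lay above it for Tbx5 (0.73 ± 0.36), as did 24.9% of IDs. In Pcl1-3 KO, Tbx5 and Tbx20 had every library above WT (17.1% of IDs) and Tbx4 every library below (15.5%). In Pcl1-3 + Epop KO, Tbx5 and Tbx20 lay above (13.0%) and 0 genes below (12.6%). Pcl1-3 + Jarid2 KO likewise had Tbx5 and Tbx20 above (22.2%) and 0 below (21.4%). Pcl1-3 + Jarid2 + Aebp2 KO had Tbx5 and Tbx20 above (19.1%) and Tbx4 below (17.8%). Set against Suz12 KO, all 5 genes had every library below in Pcl1-3 KO (28.0% of IDs), in Pcl1-3 + Jarid2 KO (28.9%) and in Pcl1-3 + Jarid2 + Aebp2 KO (27.1%), and 4 in Pcl1-3 + Epop KO (25.1%), where replicate 3 of Tbx2, at 1.81 CPM, overlapped. These shares of all IDs are given as a background, and since the genes were chosen on these contrasts nothing is read from them. Comparisons with WT share its libraries, and so do those with Suz12 KO.

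**Figure D4:**
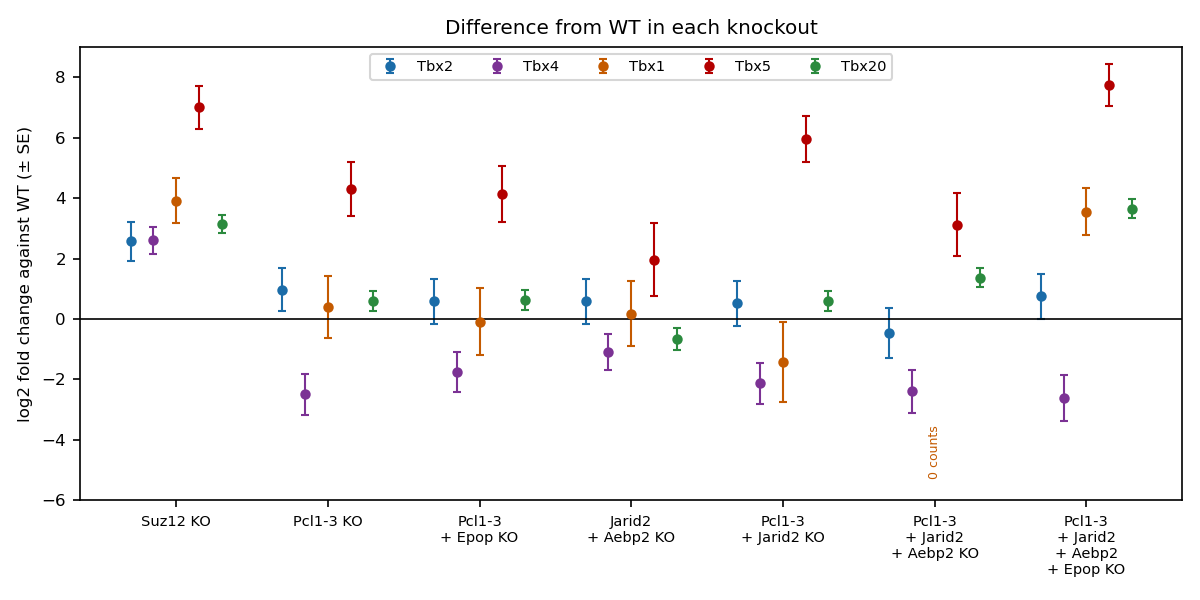
Fitted log2 fold change against WT (vertical axis, ± SE) of the 5 genes in each of 7 knockouts. Tbx4 is positive in Suz12 KO (2.60) and below 0 in all others. Tbx5 is above 0 in every knockout, with libraries that overlap WT in Jarid2 + Aebp2 KO, and is highest in Suz12 KO and the full non-core knockout. Its height depends on the prior count, because WT holds 1 count. Tbx1 with 0 counts is not drawn.

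Within genotypes, the same replicate number was often highest. By CPM, replicate 3 was the highest library for Tbx2 in 6 of 8 genotypes, for Tbx4 in 6 of 8 and for Tbx1 in 5 of the 7 genotypes with a count. For Tbx5 replicate 1 was highest in 5 of 8, and for Tbx20 replicate 3 in 4 of 8. The labels do not say what the number stands for, and its part in the levels was not tested beyond the fit with the number as a block.

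The next comparisons ask how the genes differed with the loss of further subunits. They differ from the contrasts described above, but use the same libraries and share several with each other. Apart from Jarid2 + Aebp2 KO against WT, each compares knockouts whose RNA levels were already known when the genes were picked. The p-values of those comparisons are therefore not independent of that choice. The test was edgeR's quasi-likelihood test on the counts, with p-values adjusted by the Benjamini-Hochberg method over all 14650 IDs in each of 5 comparisons.

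Loss of Jarid2 and Aebp2, with Pcl1-3 and Epop in place, called 0 of the 5 genes in edgeR's test, with 4.39% of IDs called. At an unadjusted p under 0.05 it was also 0 of 5, and DESeq2 called 0. Tbx4 had 3, 4 and 4 counts against 2, 11 and 6 in WT, a log2 fold change of -1.09 ± 0.59 that was -0.33 without WT replicate 2. Tbx20 had 0.438, 1.11 and 0.635 CPM against 0.779, 1.29 and 1.46, a log2 fold change of -0.67 ± 0.37. Tbx5 had 0, 3 and 3 counts, so that in this knockout it stayed near the single count of WT. The libraries of all 5 genes overlapped those of WT, and the median log2 fold change was 0.17 against 0.01 over all IDs.

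Loss of Epop on top of Pcl1-3 likewise called 0 of 5 genes, 0 at an unadjusted p under 0.05 and 0 in DESeq2, where edgeR called 0.00683% of IDs. Tbx20 was the most precise of the 5, with 1.90, 1.90 and 1.72 CPM against 1.68, 1.74 and 1.98 in Pcl1-3 KO and a log2 fold change of 0.02 ± 0.31. Tbx5 had 10, 9 and 6 counts against 10, 14 and 13, a log2 fold change of -0.16 ± 0.50. Tbx2 had 3, 5 and 21 counts against 9, 7 and 46, with replicate 3 the highest in both, and its log2 fold change was -0.39 ± 0.65. The libraries of both genotypes overlapped for every gene. The median was -0.16 against 0.01 over all IDs.

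With Jarid2 lost on top of Pcl1-3, Tbx5 rose and the other 4 genes did not pass, where 6.27% of IDs were called, 3.71% higher and 2.56% lower. Its CPM were 3.67, 1.41 and 2.06 against 0.885, 1.01 and 0.459 in Pcl1-3 KO, all above, as for 13.1% of IDs. The log2 fold change was 1.67 ± 0.43 (SE) with an adjusted p of 0.0218 in edgeR. This call rests on few libraries. It was lost without Pcl1-3 + Jarid2 KO replicate 1 (log2 fold change 1.22, adjusted p = 0.138 in edgeR) or replicate 3 (1.76, 0.0505), and without Pcl1-3 KO replicate 1 (1.78, 0.0570) or replicate 3 (1.32, 0.147). Tbx20, with 1.94, 1.58 and 1.86 CPM against 1.68, 1.74 and 1.98, had a log2 fold change of -0.01 ± 0.31. Tbx1 held 0, 0 and 2 counts against 3, 3 and 4. The median of the 5 was -0.01 and that of all IDs 0.00.

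With Aebp2 lost on top of Pcl1-3 and Jarid2, Tbx5 fell, and again the other 4 genes did not pass, where 0.56% of IDs were called lower and 0.341% higher. It fell from 51, 17 and 31 counts to 8, 2 and 3, or from a mean of 2.38 ± 1.16 to 0.321 ± 0.222 CPM (SD, n = 3). The libraries did not overlap, as for 8.17% of IDs in that direction, and the log2 fold change was -2.85 ± 0.50 (SE, adjusted p = 0.00421 in edgeR). The comparison before it shares the Pcl1-3 + Jarid2 KO libraries, so a high level in those libraries enters both with opposite signs. Tbx20 differed the other way, with 2.85, 2.60 and 3.82 CPM against 1.94, 1.58 and 1.86 and no overlap, as for 8.12% of IDs, but did not pass (log2 fold change 0.77 ± 0.30, adjusted p = 0.374 in edgeR). Tbx2 had 1, 7 and 7 counts against 5, 10 and 16 (log2 fold change -0.98 ± 0.76, adjusted p = 0.843 in edgeR).

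Loss of Epop on top of Pcl1-3, Jarid2 and Aebp2, the step to the full non-core knockout, was accompanied by a rise of 3 of the 5 genes, where 5.79% of IDs were called higher and 5.45% lower. Tbx5 went from 8, 2 and 3 counts to 111, 95 and 85, a mean of 0.321 ± 0.222 against 8.18 ± 1.56 CPM (SD, n = 3). Its log2 fold change was 4.62 ± 0.48 (SE, adjusted p = 1.54e-06 in edgeR). Tbx20 went from 40, 36 and 46 counts to 244, 178 and 112, a mean of 3.09 ± 0.645 against 15.1 ± 6.35 CPM. Its log2 fold change was 2.29 ± 0.28 (SE, adjusted p = 1.15e-05 in edgeR). Tbx1 went from 0 counts in every library to 14, 23 and 27. Taking 3 counts over the group as the limit that 0 allows, it was at least 23.6-fold higher (adjusted p = 0.000323 in edgeR). The exact 95% interval of the count ratio, which also takes in the counting error of the higher group, starts at 18.8. Tbx1 passed the filter on low counts only through Suz12 KO and the full non-core knockout, the higher group here. Its p-value is therefore not independent of that filter. In each of these 3 genes all libraries lay above.

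A test of the difference between this loss of Epop and the one on Pcl1-3 alone, chosen after both had been seen, called the same 3 genes, Tbx1, Tbx5 and Tbx20, and 2.09% of IDs.

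The neighbours on chromosome 11 did not pass in the step to the full non-core knockout. Tbx2 had 9, 12 and 11 counts against 1, 7 and 7, with all libraries above (13.1% of IDs) and a log2 fold change of 1.22 ± 0.76 (SE, adjusted p = 0.331 in edgeR). Tbx4 had 2, 1 and 0 counts against 2, 0 and 2, and at this depth no difference was detectable (adjusted p = 0.917 in edgeR). The median log2 fold change of the 5 was 2.29 against 0.00 over all IDs.

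**Figure D5:**
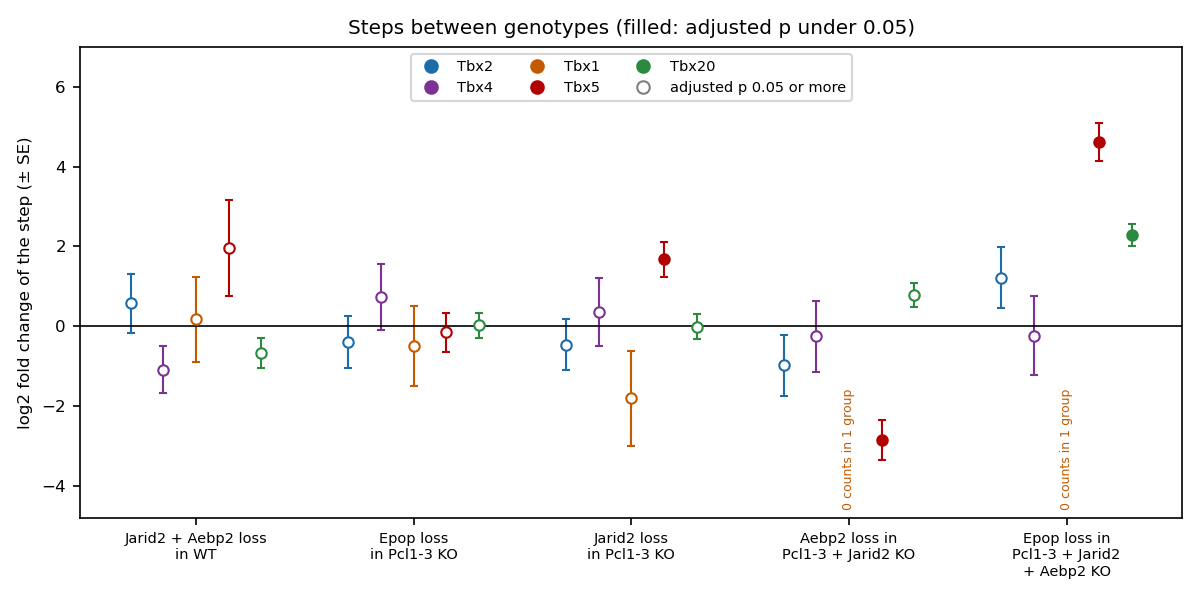
Log2 fold change (vertical axis, ± SE) of the 5 genes in 5 comparisons between genotypes, filled where the adjusted p was under 0.05. Tbx5 passes at the loss of Jarid2 (1.67), of Aebp2 (-2.85) and of Epop in the absence of Pcl1-3, Jarid2 and Aebp2 (4.62), where Tbx20 (2.29) passes too; Tbx1 is not drawn where a group has 0 counts, and passes in the last comparison.

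Across the 24 libraries, Pearson's r of log2 CPM describes how alike the patterns are, over libraries that share genotypes. Tbx5 and Tbx20 were the most alike pair of the 5, with r of 0.83, which was 0.78 without the 3 Suz12 KO libraries and 0.43 when those of the full non-core knockout were left out too. Tbx1 and Tbx20 had an r of 0.77, which was 0.67 without Suz12 KO and -0.26 without both genotypes. Outside those 6 libraries Tbx1 held at most 4 counts in a library, too few to show a likeness there. For the adjacent genes Tbx2 and Tbx4 r was 0.62, and 0.07 without Suz12 KO. Most libraries outside Suz12 KO held 0 to 4 counts of Tbx4, again too few to show a likeness there. Tbx4 and Tbx5 had an r of 0.17, and -0.55 without Suz12 KO. Among the other 14649 IDs the closest was ENSMUSG00000041912.12 for Tbx2 (r = 0.91) and ENSMUSG00000063728.10 for Tbx4 (r = 0.94). The best r of the remaining genes ran from 0.90 (Tbx5) to 0.94 (Tbx1 and Tbx20), and Tbx20 ranked 36 among the IDs closest to Tbx5. No symbol is paired with these IDs here.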

How the data were processed

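RNA was measured in 24 libraries and binding of SUZ12, JARID2 and PCL2 in 3 peak lists. The other files of the series' 63 ChIP samples are not used here. The authors deposited unnormalized counts of reads for each Ensembl ID, as whole numbers, made with STAR, HTSeq and mm10 per the submitters' processing notes, which give no versions. No source used here gives the strand setting, and reads of a gene and an antisense partner cannot be told apart. Their peak lists hold chromosome, start and end, and the notes name Trimmomatic, Bowtie2 and mm10 for ChIP. No source used here gives the peak caller, its threshold or any pooling.

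Tests on the counts used edgeR 4.0.16 (R 4.3.3): filterByExpr by genotype, which kept 14650 of 55450 IDs (24056 had no count), TMM scaling, 1 mean per genotype over all 24 libraries, robust quasi-likelihood test, and Benjamini-Hochberg adjustment over the kept IDs with a threshold of 0.05. The SE is the log2 fold change divided by the root of F. Log2 CPM for correlations used a prior count of 2. Peaks were compared with RefSeq gene positions. The code was tested on simulated data. Alternatives were DESeq2 1.42.0, its size factors in edgeR, no filter, a replicate block, each library left out, and for peaks 5 kb, gene ends only and peaks of at least 1 kb.

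The members, the gene lists and the rule for named genes (the members, other T-box genes, nearest neighbours, partners and targets, targeted genes and the 3 closest IDs per member) were chosen with earlier results of these data known. Ensembl IDs could be paired with symbols only for the 5 members, so RNA of the other lists, of ES cell markers and of the targeted genes is not analysed here, and the labels were not checked by them.

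Replicate numbers were checked by the correlation, across IDs, of same-numbered libraries' deviations from their genotype means. It was over 0.1 for every number in 4 of the 5 tested comparisons (0.152 to 0.710) and was 0.289, 0.0749 and 0.0979 for Jarid2 + Aebp2 KO against WT. In Pcl1-3 + Epop KO against Pcl1-3 KO, replicate 1 of the first correlated more with another number of the second (0.390) than with the same number (0.200). The numbers were taken to pair the libraries in those 4, although the labels name no shared batch. The main tests nevertheless left the number out, and the fits with it as a block are given below as an alternative.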

Additional observations from a re-analysis of the deposited data

Results flagged for a closer look

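The fold change between genotypes without and with Epop differed between 2 backgrounds for 3 of the 5 genes. Strain labels change with genotype as well, so an effect of Epop itself cannot be told apart from them. This comparison was chosen after the single steps had been seen, and so adds no independent support for them. Its genotypes are also among those whose RNA levels were known when the genes were picked. The quasi-likelihood test in edgeR of the difference between the steps called 2.09% of 14650 IDs. Tbx5 changed by 4.78 ± 0.70 (SE) more on the log2 scale when Epop was lost with Pcl1-3, Jarid2 and Aebp2 absent than when Pcl1-3 alone was absent (adjusted p = 0.000447 in edgeR), with all 3 libraries above in the first background and overlap in the second. Tbx20 changed by 2.27 ± 0.42 more (adjusted p = 0.00378 in edgeR), also with all 3 libraries above in the first background. For Tbx1, which had 0 counts in all libraries of Pcl1-3 + Jarid2 + Aebp2 KO, the fitted size is not given. Its adjusted p was 0.0187 in edgeR. It passed the filter on low counts only through Suz12 KO and the full non-core knockout, so this p-value is not independent of the filter. Tbx2 (adjusted p = 0.548) and Tbx4 (adjusted p = 0.838) did not pass. All groups have 3 libraries, so single outlying libraries were checked only by leaving out each library in turn, as given below.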

How the results depend on the processing

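With 5 tested comparisons, the number of T-box genes passing was the same under DESeq2, its size factors in edgeR, no filter on low counts and the replicate block; fitting the replicate number as a block gave 0, 0, 1, 1 and 3 genes passing, as without it, and changed no other call. Leaving out single libraries changed 1 of the 5 results: for the loss of Jarid2 on top of Pcl1-3 the number passing ranged from 0 to 1. The tests of the difference between the Epop losses kept their calls under all alternatives, with adjusted p from 1.61e-10 to 0.0475 in edgeR or DESeq2. Fold changes of the tested comparisons that changed sign, all of genes that passed in neither case, did so without 1 library, with these log2 ranges: Jarid2 + Aebp2 loss, Tbx1 -0.32 to 1.56; Epop on Pcl1-3, Tbx2 -1.72 to 0.29, Tbx1 -2.07 to 0.10, Tbx5 -0.51 to 0.10 and Tbx20 -0.0229 to 0.10; Jarid2 on Pcl1-3, Tbx2 -0.82 to 0.22, Tbx4 -0.25 to 0.61 and Tbx20 -0.0735 to 0.0703; Aebp2 loss, Tbx4 -0.69 to 0.35; last Epop loss, Tbx4 -1.15 to 0.30. Of the untested log2 fold changes given in the text, that of Tbx1 between the full non-core knockout and Suz12 KO also changed sign (-0.70 to 0.37 without 1 library). The count of all IDs called moved by over 1.5 times. For Jarid2 + Aebp2 KO against WT it was 643, against 1444 with no filter, 2281 with the block, 1061 in DESeq2 and 82 to 807 without a library. For Epop on Pcl1-3 it was 1, against 20, 2, 3 and 0 to 1 in the same order. For the loss of Jarid2 it was 918, against 1949 with the block and 414 to 952 without a library. For the loss of Aebp2 it was 132, against 391, 432, 237 and 35 to 110 in that order. For the last Epop loss it was 1647, against 3049 with the block and 1085 to 2077 without a library. Counting peaks within 1 kb of gene ends only left JARID2 at 4 of the 5 genes, without Tbx5, and the other peak settings left all 3 proteins at all 5. The planned tests of RNA of 12 other T-box genes were not run, for want of symbols. With 0 to 4 counts in most libraries, depth limits what can be seen of Tbx4 outside Suz12 KO and of Tbx1 outside Suz12 KO and the full non-core knockout.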
